A study of Mus musculus with 6 samples.

Results

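Integrins are the adhesion receptors through which a cell holds on to matrix and to other cells. Genes of 10 of their chains are described here in primary mouse macrophages driven towards osteoclasts, with and without the mitotic kinase gene Bub1. The 10 members were chosen by symbol from a table of 15982 genes: Itgav, Itgb3 and Itgb5 (vitronectin-type), Itgb2, Itgam, Itgal and Itgax (leukocyte type), and Itgb1, Itga4 and Itga5 (receptors for fibronectin and VCAM-1). They were picked with the values of this same comparison already known, so all their values below are a description and not an independent test. One symbol, Itgam, had 2 rows, and the row with the higher mean was kept. The table has rows for 13 further integrin subunits, which makes 23 in all.

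Bone marrow macrophages came from Ctrl mice or from mice with a myeloid-specific deletion of Bub1 (Bub1 cKO), with 3 libraries of each genotype. All cells, of both genotypes, had 3 days of M-CSF at 20 ng/ml, a macrophage growth factor, and then 2 days of M-CSF at 20 ng/ml plus 50 ng/ml of RANKL, which starts osteoclast formation. The sources used here do not name the Cre driver, the deleted exons, the genotype of Ctrl mice or their age, nor do they say whether the libraries came from separate animals, so the p-values measure only the spread between these libraries. Each library was made from 25 ng of RNA with a kit that reads the 3' ends of transcripts.

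The authors' deposited table gives 1 expression value per gene and genotype, so no value per library, SD or overlap between libraries can be shown. Those values are called TPM here (a level scaled by transcript length and by library total) because the columns sum to 999891 (Ctrl) and 999954 (Bub1 cKO). Columns of CPM would have such sums too. TPM divides by transcript length, whereas 3' reads do not grow with length, so the order of levels, ratios and shares between different genes are approximate here. For 1 gene with 1 transcript the length cancels between genotypes. A gene's deposited log2 change is that of Bub1 cKO over Ctrl after 1 is added to both values. The table's standard error is read here as belonging to a second estimate, the change that the authors' test made itself. That change was obtained as the test statistic times the standard error and is called the test's own log2 change. This takes the statistic to be a change divided by its standard error, since the kind of test is not given. Its 95% interval stands for the measurement error throughout. Where 2 TPM values of a gene are given without a genotype, the first is Ctrl and the second Bub1 cKO. In the authors' deposited table Bub1 itself was at 6.73 (Ctrl) and 5.32 TPM (Bub1 cKO) (adjusted p = 0.985), and since 3' reads need not lie in the deleted stretch, that value is no check of the labels. Macrophage markers were present, with Cd68 at 260 and 306 TPM and Csf1r at 116 and 96.7 TPM, while only 2 of 8 lymphocyte markers had a row, none above 0.058 TPM per the authors' deposited table.

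An integrin is a pair of an alpha and a beta chain, and the pairing sets what it binds. The alpha-V chain pairs with beta-3 to form the vitronectin receptor, which gathers in the podosomes and sealing zone with which osteoclasts grip bone and signals through Src and Syk. Macrophage precursors lean more on the beta-2 family, in which beta-2 pairs with alpha-L (LFA-1), alpha-M (Mac-1) or alpha-X to bind ICAMs, complement fragments and fibrinogen. Beta-1 pairs with alpha-5 to bind fibronectin and with alpha-4 to bind VCAM-1.

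Itgav, the alpha-V chain gene, was the member that differed most clearly. It stood at 183 (Ctrl) and 394 TPM (Bub1 cKO), a ratio of 2.15, in the authors' deposited table. Its deposited log2 change was 1.10, and its test's own log2 change was 1.10 with an interval from 0.61 to 1.60. The adjusted p over all genes was 0.013 in the authors' deposited table, and 12 of the 15982 genes had a smaller unadjusted p. Itgav was the 1 member of 10 with an adjusted p under 0.05, beside 0.181% of all genes in either direction; nothing is read from this count, since the comparison had been seen when the members were picked.

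Itgav lies on chromosome 2, from 83724397 to 83806916 on the plus strand (GRCm38, GENCODE M21, matched by gene ID, ENSMUSG00000027087.11). The nearest gene before it with a mean of at least 1 TPM was Zc3h15, 59.8 kb away, at 232 (Ctrl) and 271 TPM (Bub1 cKO) (adjusted p = 0.985 in the authors' deposited table). The nearest after it was Calcrl, a receptor subunit for calcitonin-family peptides, 524 kb away, at 11.7 and 19.2 TPM; its statistic was negative, -1.20, with adjusted p = 0.985 in the authors' deposited table. Neither neighbour passed the threshold that Itgav passed. Itga4, the alpha-4 chain gene, is on the same chromosome from 79255426 to 79333123. So is Bub1, from 127801122 to 127831865 on the minus strand. Itgav ends 44.0 Mb and Itga4 48.5 Mb before the lower of these Bub1 positions.

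Promoter windows of 4 members are shown, grouped by higher or lower values in Bub1 cKO. They are the vitronectin-type Itgav and Itgb5, and against them the alpha-4 gene Itga4 and the leukocyte gene Itgam. Only Itgav had an adjusted p under 0.05, so Itgb5, Itga4 and Itgam are placed by their values alone. Windows matched 7 of the 10 members, all but Itgb3, Itgb2 and Itgal. Each runs from 250 bases before the start site to 50 bases after it, 5′ to 3′ on the gene's strand (RefSeq, GRCm38.p6). The windows are chr2:83724147-83724446 for Itgav, chr16:33829415-33829714 for Itgb5, chr2:79255176-79255475 for Itga4 and chr7:128062390-128062689 for Itgam, all on the plus strand. Capitals mark the core motif of the myeloid factor PU.1 (GAGGAA or its complement TTCCTC) and the GC box of Sp1-type factors (GGGCGG or CCGCCC).
Itgav: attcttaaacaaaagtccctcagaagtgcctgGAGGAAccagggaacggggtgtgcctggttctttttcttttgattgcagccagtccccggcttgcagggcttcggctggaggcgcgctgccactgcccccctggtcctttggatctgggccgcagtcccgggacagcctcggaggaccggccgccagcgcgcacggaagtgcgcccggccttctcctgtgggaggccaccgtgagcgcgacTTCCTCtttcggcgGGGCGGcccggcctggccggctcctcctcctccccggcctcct
Itgb5: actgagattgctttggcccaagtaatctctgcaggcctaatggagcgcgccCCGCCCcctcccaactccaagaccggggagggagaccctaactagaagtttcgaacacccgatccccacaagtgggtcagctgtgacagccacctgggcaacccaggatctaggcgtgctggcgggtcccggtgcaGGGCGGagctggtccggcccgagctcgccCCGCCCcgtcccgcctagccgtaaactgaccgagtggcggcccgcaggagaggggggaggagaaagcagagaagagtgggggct
Itga4: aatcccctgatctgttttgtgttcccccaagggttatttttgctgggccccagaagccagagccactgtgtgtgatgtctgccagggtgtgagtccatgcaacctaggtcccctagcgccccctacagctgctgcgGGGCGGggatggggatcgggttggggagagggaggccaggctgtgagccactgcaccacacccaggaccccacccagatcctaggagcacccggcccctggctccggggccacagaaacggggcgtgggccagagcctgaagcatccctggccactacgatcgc
Itgam: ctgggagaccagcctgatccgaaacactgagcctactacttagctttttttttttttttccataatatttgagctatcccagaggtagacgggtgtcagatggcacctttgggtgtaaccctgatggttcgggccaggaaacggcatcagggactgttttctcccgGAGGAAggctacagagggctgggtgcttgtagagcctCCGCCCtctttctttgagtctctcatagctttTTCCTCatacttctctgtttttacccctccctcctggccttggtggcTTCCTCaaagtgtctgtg

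Itgav carried the PU.1 core 2 times and the GC box 1 time, Itgam 3 times and 1 time, Itgb5 0 and 3 times, and Itga4 0 and 1 time. The bases G and C made up 67.3% of the Itgav window, 65.7% of Itgb5, 64.3% of Itga4 and 50.3% of Itgam, where the median of all 32851 windows was 52.7%. The PU.1 core was in 4 of the 7 members with a window and in 28.3% of all windows, and the GC box in 6 of 7 and in 35.7%. The AP-1 motif TGANTCA was in 1 of 7, Itgax, and in 7.81% of all windows. A motif of NF-κB was in 1 of 7, Itgb5, and in 20.7%, and its match did not overlap a marked motif there. The TATA box TATAAA was in 0 of 7 and in 13.6%. Both strands were searched, and a match says only that the letters are there.

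Both beta chains of the vitronectin receptors had higher values in Bub1 cKO as well, at much lower levels than their alpha partner. Itgb3, the beta-3 chain of the osteoclast receptor (chromosome 11, 104608000 to 104670476), was at 8.20 (Ctrl) and 12.02 TPM (Bub1 cKO) per the authors' deposited table. Its test's own log2 change was 0.57, with an interval from 0.08 to 1.06, which leaves out 0, but its adjusted p over all genes was 0.861 in the authors' deposited table. Itgb5, the beta-5 chain that macrophages carry before beta-3 comes up (chromosome 16, 33829665 to 33949338), was at 4.75 and 6.54 TPM, with an interval from -0.59 to 1.54 and adjusted p = 0.985 in the authors' deposited table. So all 3 vitronectin-type genes were higher in Bub1 cKO by value and by the sign of the statistic, 1 of them past the threshold, and the interval of Itgb5 also holds a fall.

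**Figure D1:**
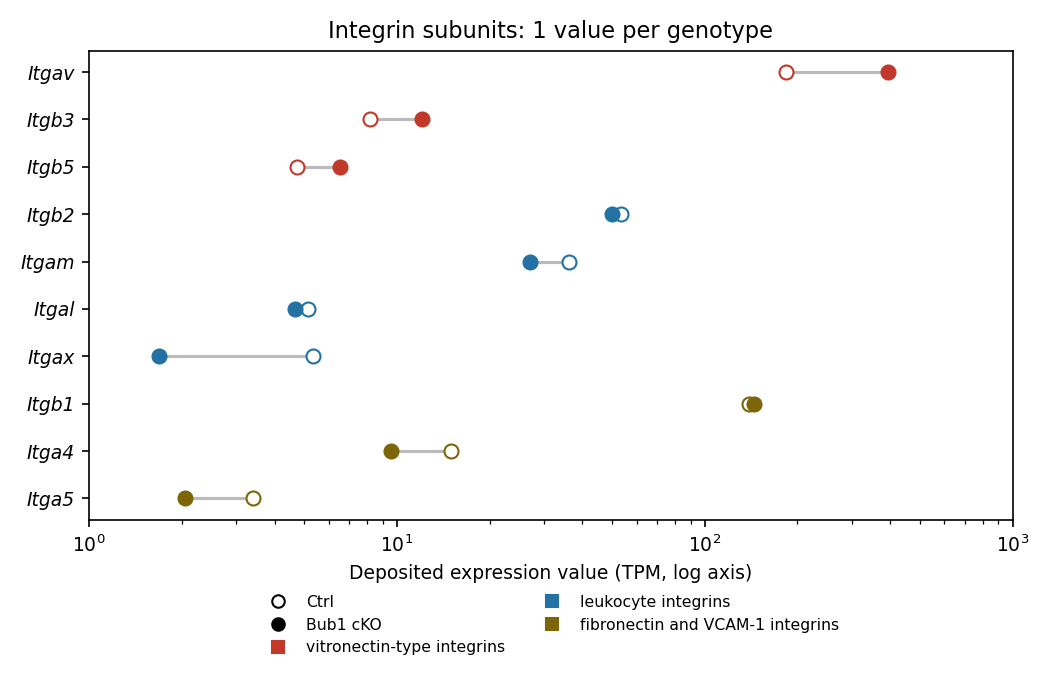
Expression value of each of the 10 integrin members in Ctrl (open) and Bub1 cKO (filled), in TPM on a log axis, 1 value per genotype and no error per library. Itgav was at 183 and 394 TPM, the 4 leukocyte genes all had lower values in Bub1 cKO, and Itgb1 was nearly in place at 139 and 144 TPM.

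All 4 leukocyte integrins had lower values in Bub1 cKO, and 0 of them passed the threshold. Itgb2, the shared beta chain (chromosome 10, 77530252 to 77565708), was at 53.4 (Ctrl) and 49.8 TPM (Bub1 cKO), with an interval of the log2 change from -0.46 to 0.32 and adjusted p = 0.985 in the authors' deposited table. That interval leaves out a fall or a rise of the size seen for Itgav. Itgam, the alpha-M chain known as CD11b, was at 36.3 and 27.1 TPM per the authors' deposited table. Its test's own log2 change with standard error was -0.41 ± 0.20. The interval of Itgam ran from -0.80 to -0.03 and its adjusted p was 0.955 in the authors' deposited table. Itgal, the alpha-L chain of LFA-1, was at 5.13 and 4.66 TPM per the authors' deposited table, and its interval ran from -1.21 to 0.77.

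Itgax, the alpha-X chain known as CD11c, cannot be given a direction. Its value was 5.34 (Ctrl) and 1.69 TPM (Bub1 cKO), a log2 change of -1.24 in the authors' deposited table, but its statistic was 2.35, which points the other way. The test's own log2 change of Itgax was 2.31, with an interval from 0.38 to 4.23 and adjusted p = 0.849 in the authors' deposited table. Both changes are 3.61 standard errors apart, a gap that 77 of 15982 rows (0.482%) reach, and Itgax is among the 10 rows of the whole table with opposite signs and an unadjusted p under 0.05. The sources used here do not say how the values and the test were each made.

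The alpha chains of this family all lie on chromosome 7, with Itgam and Itgax next to each other and Itgal apart from them (Itgal from 127296260 to 127335138, Itgam from 128062640 to 128118491, Itgax from 128129547 to 128150657), and the second row with the symbol Itgam falls beside Itgax. Its ID, ENSMUSG00000108596.1, is a separate gene model in GENCODE M21, Gm49368, from 128062683 to 128128160 on the same strand, which shares 55809 bases with Itgam and ends shortly before Itgax. That row is listed at 3.32 TPM in Ctrl and at 0 in Bub1 cKO, its standard error being 3.39 and its adjusted p 0.985 in the authors' deposited table. Reads from the shared stretch could have been split between both models, so the level of Itgam is uncertain by that much. Summed over both rows, Itgam was at 39.6 (Ctrl) and 27.1 TPM (Bub1 cKO), or -0.53 as a log2 change.

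Of the receptors for fibronectin and VCAM-1, the alpha-4 gene had the smallest p, while Itga5 had the larger fold by values, 1.66-fold lower, with a wider error. Itga4, with which monocytes bind VCAM-1, was at 15.0 (Ctrl) and 9.53 TPM (Bub1 cKO), 1.57-fold lower in the authors' deposited table. Its test's own log2 change was -0.61, with an interval from -1.02 to -0.20, and its adjusted p in the authors' deposited table was 0.445, so it did not pass. Its interval does not meet that of Itgav, the other alpha gene on chromosome 2. Itgb1, the beta-1 chain gene (chromosome 8, 128685654 to 128733200), was at 139 and 144 TPM, with an interval from -0.47 to 0.09 and a statistic of -1.33, opposite in sign to the change of its values in the authors' deposited table. Itga5, the alpha-5 chain gene (chromosome 15, 103344286 to 103366763 on the minus strand), was at 3.40 and 2.04 TPM, with an interval from -0.70 to 2.46 around a test's own change of 0.88 and an adjusted p in the authors' deposited table of 0.985. Itga5, too, cannot be given a direction.

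**Figure D2:**
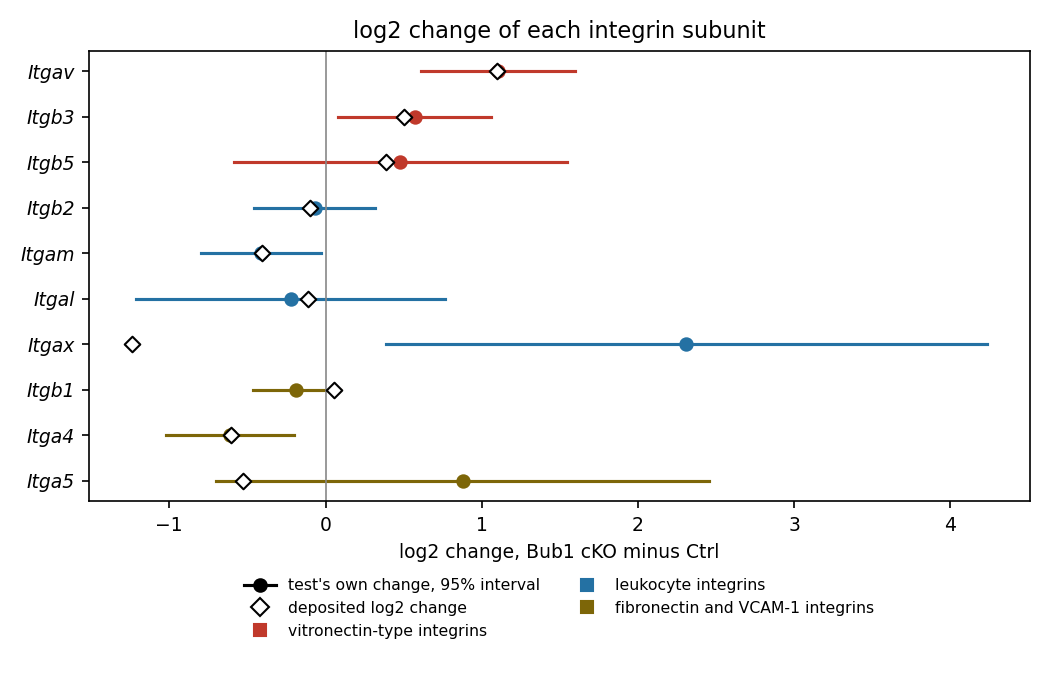
log2 change of each member, Bub1 cKO minus Ctrl: filled points are the test's own change with its 95% interval, open diamonds the deposited change. The interval of Itgav lies from 0.61 to 1.60, and for Itgax the diamond at -1.24 lies outside its interval of 0.38 to 4.23.

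Set side by side, the median deposited log2 change was 0.50 for the 3 vitronectin-type genes, -0.26 for the 4 leukocyte genes and -0.53 for the other 3, beside -0.01 for all 15982 genes. The vitronectin-type median was thus 0.76 above the leukocyte median on the log2 scale, and 0.72 above it by the test's own changes. The -0.53 of the receptors for fibronectin and VCAM-1 is the deposited change of Itga5, which has no clear direction, and their median by the test's own changes was -0.19. Means give another picture: the difference was 1.13 with the deposited changes and 0.32 with the test's own, and Itgax has the most distant value on both scales. Unadjusted p lay under 0.05 in 5 members, Itgav, Itgb3 and Itgax with positive and Itgam and Itga4 with negative statistics, beside 4.81% of all genes. This count, too, rests on the comparison with which the members were picked. Signs of value and statistic differed in 3 of 10 members (Itgax, Itgb1 and Itga5) and in 9.5% of all genes. Of the members, 7 had a mean of at least 5 TPM, and Itgal, Itgax and Itga5 lay below it.

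**Figure D3:**
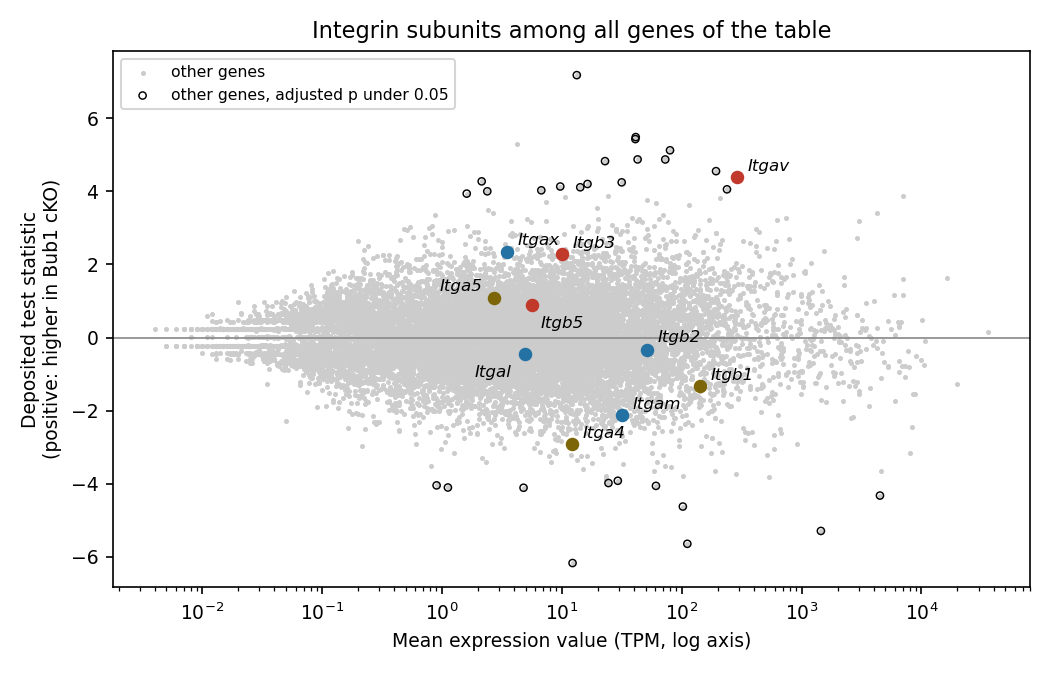
The authors' test statistic (vertical axis, positive where higher in Bub1 cKO) against the mean of both genotypes in TPM (log axis) for all genes in grey, genes with an adjusted p under 0.05 circled, and the 10 members in colour: vitronectin-type red, leukocyte blue, fibronectin and VCAM-1 receptors brown. Itgav, at a statistic of 4.40, lies apart from the other 9, which lie between -2.91 and 2.35.

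Since alpha and beta chains are needed in pairs, their summed transcripts were compared. Itgav was 1.21 times the sum of its measured beta partners Itgb1, Itgb3, Itgb5 and Itgb6 in Ctrl, and 2.42 times that sum in Bub1 cKO. Against Itgb3 and Itgb5 alone the ratio was 14.2 in Ctrl and 21.2 in Bub1 cKO. By these values Itgb1 made up most of the transcripts of the partners in both genotypes. For the leukocyte family, the alpha genes Itgam, Itgal, Itgax and Itgad summed to 0.88 of Itgb2 in Ctrl and 0.69 in Bub1 cKO by deposited value. Without Itgax, which has no clear direction, these ratios were 0.78 and 0.66. The 3 vitronectin-type genes summed to 196 TPM beside 100.2 TPM of the 4 leukocyte genes in Ctrl, and to 413 beside 83.3 TPM in Bub1 cKO; leaving out Itgax, the leukocyte sums were 94.9 and 81.6 TPM. Without Itgav, the vitronectin-type sum was 0.13 of the leukocyte sum in Ctrl and 0.22 in Bub1 cKO. These sums have no error of their own, and levels of transcripts are not levels of receptors.

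Among the 16 alpha subunit genes with a row, Itgav held 60.5% of all TPM in Ctrl and 80.8% in Bub1 cKO. Shares add up to a whole, so a higher share of 1 gene lowers those of others. Itgam held 11.97% and 5.57%, Itga4 held 4.94% and 1.95%, and Itga6, the alpha-6 laminin receptor chain, held 16.2% and 8.97%. Among the 7 beta genes the make-up moved less, with Itgb7 at 50.7% and 56.2%, Itgb1 at 33.4% and 29.7% and Itgb2 at 12.8% and 10.3%. Itgb3 held 1.97% and 2.48% of beta transcripts, and Itgb5 held 1.14% and 1.35%. The order of levels in Ctrl was Itgb7, Itgav, Itgb1, Itgb2, Itga6 and Itgam, and in Bub1 cKO Itgav stood before Itgb7; without values per library, neighbours in this order cannot be told apart.

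**Figure D4:**
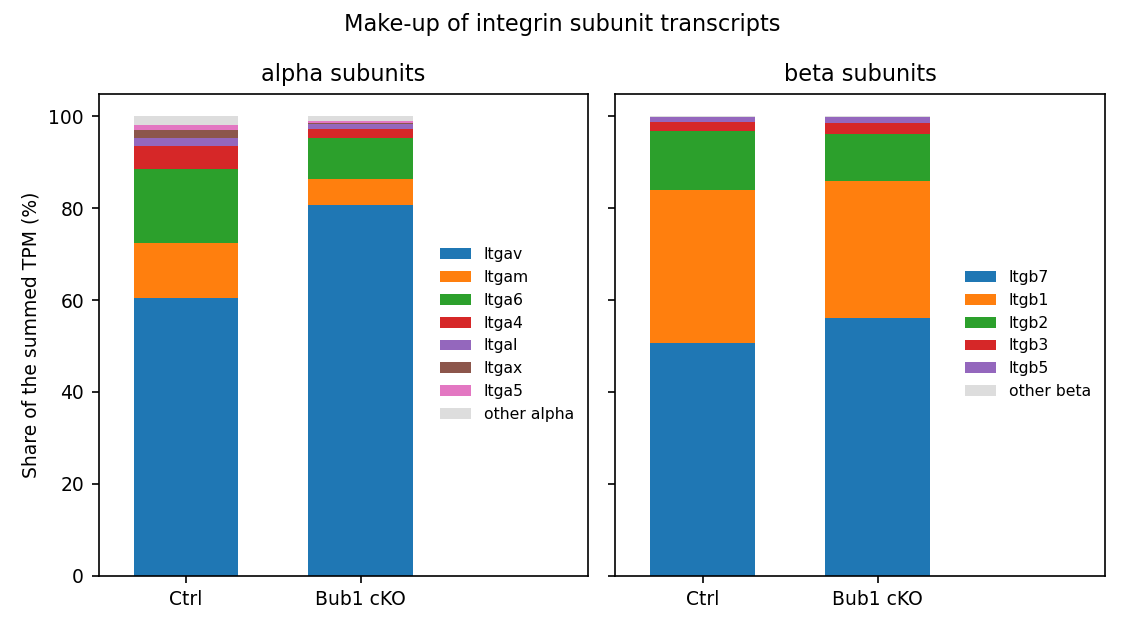
Share of each subunit gene in the summed TPM of all alpha (left) and all beta (right) integrin genes, in percent, for Ctrl and Bub1 cKO. The share of Itgav is 60.5% in Ctrl and 80.8% in Bub1 cKO, while the beta bars keep nearly the same make-up.

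Of the subunits outside the 10 members, Itgb7 had the highest level. It encodes the beta-7 chain, which pairs with alpha-4 and alpha-E and is best known from gut-homing lymphocytes. Itgb7 was at 211 (Ctrl) and 273 TPM (Bub1 cKO) per the authors' deposited table, with an interval of the log2 change from -0.14 to 0.91 and adjusted p = 0.985. Its alpha partners Itga4 and Itgae summed to 0.07 of its level in Ctrl and 0.04 in Bub1 cKO. Lymphocyte markers were near 0 in the same table, as given above. Itga6 was at 49.1 and 43.7 TPM, Itga7 at 1.85 and 1.54 TPM, and Itga8 at 2.01 and 0.073 TPM with an interval from -5.97 to 2.05; their adjusted p in the authors' deposited table lay at 0.985 or above. The other 9 subunits had a mean under 1 TPM, among them Itga2b, the platelet alpha-IIb chain, at 0.043 and 1.09 TPM per the authors' deposited table.

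Genes that work with integrins were then counted from lists by role, each limited to members whose mean reached 5 TPM. Of all 7157 genes at that level, 3.69% had an unadjusted p under 0.05 and a positive statistic and 3.7% a negative one, and their median log2 change was -0.002. At any p, 3601 of the 7157 had a positive and 3556 a negative statistic. The lists held 6 ligands, 14 activators, 21 signalling genes, 16 adhesion plaque genes, 17 membrane partners and 12 traffic genes. Of these, 0 had an adjusted p under 0.05 in the authors' deposited table, beside 23 of all 7157 genes. At so low a share, nothing is read from the 0. Counted by unadjusted p under 0.05, these lists held 3 higher genes, Pik3cb, Src and Cd44, and 4 lower genes, Lamc1, Icam1, Sirpa and Cd47. Nothing is read from these counts either, nor from the counts of positive and negative statistics given by list below.

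Ligands were measured in 6 genes of that level, with 0 higher, 2 lower and a median log2 change of 0.05. Osteopontin (Spp1), a main ligand of the vitronectin receptor in bone, was at 137 and 142 TPM (adjusted p = 0.985 in the authors' deposited table). Adam15, a membrane protease with an integrin-binding domain, was at 587 and 671 TPM, and Mfge8, which bridges dying cells to alpha-V integrins, at 26.8 and 28.6 TPM, both with adjusted p = 0.985 in the authors' deposited table. Icam1, the ligand of the leukocyte integrins, was at 15.1 (Ctrl) and 8.49 TPM (Bub1 cKO) (adjusted p = 0.759 in the authors' deposited table). Lamc1, a laminin chain, was at 20.4 and 6.29 TPM, with an interval of its log2 change from -2.58 to -0.67 and adjusted p = 0.222 in the authors' deposited table. Vitronectin itself (Vtn) and 7 further symbols of the list had no row, so they could not be analysed. Fibronectin (Fn1) was low, at 3.35 and 1.77 TPM per the authors' deposited table.

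Activation from inside the cell runs through talin and kindlin, which bind the beta tail. Of 14 genes of this list, counted in the same way, 0 were higher and 0 lower, with a median log2 change of -0.04 as deposited and 0.01 by the test's own changes. Talin-1 (Tln1) was at 1475 and 1492 TPM, with an interval from -0.14 to 0.36, and kindlin-3 (Fermt3) at 49.5 and 52.6 TPM per the authors' deposited table, with an interval from -0.25 to 0.47. The smallest p belonged to Rapgef1, an exchange factor for Rap1 (20.6 and 26.4 TPM), Rassf5, a Rap1 effector known as RAPL (8.39 and 4.77 TPM), Cyth1, a cytohesin that binds the beta-2 tail (22.1 and 10.9 TPM), and Dok1, an adaptor that competes with talin (19.5 and 14.1 TPM), each with adjusted p = 0.985 in the authors' deposited table.

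Signalling from the bound receptor was represented by 21 genes, of which 2 were higher and 0 lower. A negative statistic was found in 15 of the 21, beside 3556 of all 7157 genes at that level. Src, the kinase that the vitronectin receptor switches on in osteoclasts, was at 7.91 (Ctrl) and 12.8 TPM (Bub1 cKO), with an interval from 0.01 to 1.41 and adjusted p = 0.985 in the authors' deposited table. Pik3cb, a catalytic subunit of PI3-kinase, was at 5.96 and 10.5 TPM (adjusted p = 0.861) in the authors' deposited table. Rac1, the GTPase of the actin ruffle, was at 81.9 and 64.9 TPM, and Lyn, another Src-family kinase, at 40.4 and 42.7 TPM, both with adjusted p = 0.985 in the authors' deposited table. Syk was at 9.09 and 7.92 TPM and the ITAM adaptor Tyrobp (DAP12) at 717 and 618 TPM per the authors' deposited table, both with intervals that hold 0. The median log2 change of the list was -0.08 as deposited and -0.18 by the test's own changes.

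**Figure D5:**
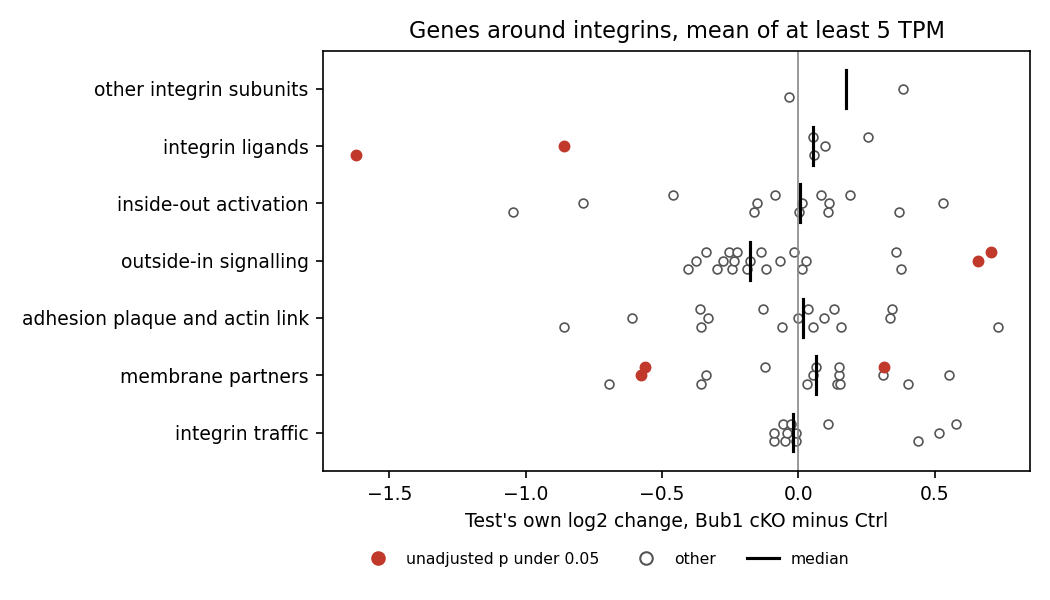
The test's own log2 change (Bub1 cKO minus Ctrl) of each gene with a mean of at least 5 TPM, by list: filled red points have an unadjusted p under 0.05, open points do not, and the black bar is the median. Medians lie between -0.18 and 0.18, and Lamc1 at -1.62 is the point farthest from 0.

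The adhesion plaque list had 16 genes, with 0 higher, 0 lower and 8 statistics on each side. Its median log2 change was 0.09 as deposited and 0.02 by the test's own changes. Ilk, the scaffold kinase on beta tails, was at 24.6 and 15.9 TPM, and the plaque protein zyxin (Zyx) at 8.25 and 4.61 TPM per the authors' deposited table. Parvb and Parvg, the parvins that tie Ilk to actin, were at 29.1 and 79.4 TPM and at 3.70 and 11.7 TPM, with deposited log2 changes of 1.42 and 1.43 in the authors' deposited table and test's own changes of 0.33 and 0.73. All 4 had adjusted p = 0.985 in the authors' deposited table. Vinculin (Vcl) was at 5.45 and 6.60 TPM per the authors' deposited table.

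Membrane partners numbered 17, with 1 higher and 2 lower. Their median log2 change was 0.14 as deposited and 0.06 by the test's own changes. Cd47, the integrin-associated protein, was at 30.7 (Ctrl) and 24.4 TPM (Bub1 cKO) (adjusted p = 0.386 in the authors' deposited table), and its receptor Sirpa at 122 and 81.3 TPM (adjusted p = 0.067). Cd44, the hyaluronan and osteopontin receptor, was at 56.6 and 72.5 TPM (adjusted p = 0.754), and the tetraspanin Cd81 at 39.5 and 25.8 TPM (adjusted p = 0.985) in the authors' deposited table. The 12 traffic genes had 0 higher, 0 lower, 8 negative and 4 positive statistics, and a median log2 change of 0.09 as deposited and -0.02 by the test's own changes. They include Rab5a, the early endosome GTPase, at 5.71 and 8.57 TPM, the sorting adaptor Gga3 at 21.7 and 31.6 TPM, the endocytic adaptor Numb at 9.65 and 20.9 TPM and the retromer subunit Vps35 at 34.3 and 35.1 TPM, all with adjusted p = 0.985 in the authors' deposited table.

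Integrins also mark cell types, and in bulk RNA more cells of a type and more RNA per cell cannot be told apart. The marker counts below stand beside the same 7157 genes as the lists above. Of these, 3601 had positive and 3556 negative statistics, 3.69% were higher, 3.7% lower, and 23 passed the adjusted threshold. Marker lists were chosen with earlier results known, so nothing is read from their counts. Osteoclast markers, which accompany Itgav and Itgb3 in differentiation, had 9 of 12 positive statistics, 5 higher and 0 lower in the same way and 0 past the adjusted threshold; their summed level was 2144 (Ctrl) and 2489 TPM (Bub1 cKO). Macrophage markers, beside Itgam and Itgb2, had 8 of 10 negative statistics, with 3 lower and 1 higher, and summed to 2920 and 1469 TPM, of which Lyz2 alone, the 1 macrophage marker past the adjusted threshold, gave 2141 and 762 TPM. Neutrophils carry Itgam and Itgb2 at high levels, and 4 of 4 neutrophil markers with a mean of at least 5 TPM had positive statistics, although the values of Ltf, the lactoferrin gene, went the other way, at 12.3 and 6.74 TPM with a statistic of 0.22 in the authors' deposited table. The 11 neutrophil markers with a row summed to 95.8 (Ctrl) and 235 TPM (Bub1 cKO), with Cxcr2 past the adjusted threshold and 4 of them (Elane, Retnlg, Camp and Lcn2) listed at 0 in Ctrl. The 7 erythroid markers with a row summed to 45.3 and 415 TPM, with 5 of 5 higher and 3 past the adjusted threshold. Those 3 were Hbb-bs (5.44 and 77.3 TPM), Hbb-bt (1.01 and 31.8 TPM) and the transferrin receptor gene Tfrc (25.7 and 56.5 TPM). Tfrc alone thus gave more of the Ctrl sum than the other erythroid markers together.

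Platelets and megakaryocytes carry Itgb3 with Itga2b. Of 8 such markers with a row, Pf4, which macrophages can also express, was at 266 and 288 TPM and Vwf at 2.43 and 2.41 TPM per the authors' deposited table. Gp1bb was at 0 and 1.04 TPM, Gp9 at 0 and 0.205 TPM, Gp1ba at 0 and 0.058 TPM, Ppbp at 0.549 and 0.479 TPM and Gp6 at 0.04 and 0 TPM per the authors' deposited table. Dendritic cells carry Itgax: their markers Flt3, Zbtb46 and Xcr1 were each at most at 1.49 TPM in either genotype, and Cd74 and H2-Aa, which activated macrophages share, were at 26.1 and 35.2 TPM and at 31.9 and 29.5 TPM per the authors' deposited table. Of the stromal and endothelial markers Pecam1, also carried by myeloid cells, was at 240 and 161 TPM, and the other 8 were at most 2.15 TPM per the authors' deposited table. The part that any of these cell types has in the integrin values was not tested.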

How the data were processed

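RNA of 3 Ctrl and 3 Bub1 cKO libraries was compared by the authors, whose 1 deposited table names RaNA-seq in its header. Per the file headers it holds a mean and a value per genotype, here read as TPM from the column sums, a log2 change and its standard error, a test statistic (a score) and unadjusted and adjusted p-values. Aligner, genome build, annotation, filters and the kind of test: not given in the sources used here. Library depth is unknown, so precision comes from the authors' standard error.

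Computed here, with Python 3.11.15, pandas 2.3.3 and scipy 1.17.1: the test's own log2 change (statistic times standard error, ± 1.96 standard errors for the 95% interval), sums and shares of TPM, list counts and motif matches. The deposited log2 change matched log2 of the values plus 1, within 0.002, in 15982 rows. The planned test on library counts did not apply to this table, so the authors' test across all genes was used. The Benjamini-Hochberg step was tested on simulated data. Positions come from GENCODE M21 by gene ID (15902 of 15982 matched), motif windows from RefSeq.

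Members and lists were chosen with earlier results of these data known. Named are all members, other subunits with a mean of at least 1 TPM and up to 4 genes per list with the smallest p at a mean of at least 5 TPM. Spp1, Fn1, Tln1, Fermt3, Syk, Tyrobp, Vcl, Zc3h15, Calcrl, Itga2b, Ltf and Vwf were named after their values were seen. So were Hbb-bs, Hbb-bt, Tfrc and the markers at or near 0, and the sums without Itgax were added then.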

Additional observations from a re-analysis of the deposited data

How the results depend on the processing

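The 1 member past the adjusted threshold, Itgav, was again the 1 member at an adjusted p under 0.1 and with Benjamini-Hochberg repeated on the 10881 genes with a mean of 1 TPM or more (Itgav at 0.00921), on the 7159 with 5 TPM or more (0.00606) or on 1 row per symbol (0.0135); at an unadjusted p under 0.05 the count was 5. With an adjusted p of 0.013 in the authors' test, Itgav had to pass at 0.1. The repeats used the same p-values, so keeping Itgav is no independent support. What these adjusted settings could show was whether another member joined, and none did. Over 41 alternatives for the log2 change of single members, 38 kept the direction and 3 reversed. All 3 reversed with the test's own change: Itgb1 to -0.19, Itgax to 2.31 and Itga5 to 0.88. Most of the 38 could not have reversed. Another pseudocount, or taking off the median of -0.002, leaves the signs of these changes as they are. The setting that could turn the sign of any member was the test's own change, and it did so in 3 of 10. The cause was not tested. The median difference of 0.76 between vitronectin-type and leukocyte genes stayed positive in 13 alternatives, between 0.32 and 1.13. It was 1.13 with means, 1.06 without Itgb5 and, chosen after seeing the data, 0.32 with means of the test's own changes. Most of these alternatives could not have turned negative. All vitronectin-type deposited changes were positive and all leukocyte ones negative, in members picked with this comparison known. Only the settings with the test's own changes could, and they gave 0.72 for medians and 0.32 for means. Leaving out a library could not be run. No paired analysis was possible because the table holds 1 value per genotype and none per library.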
